A study of Mus musculus with 9 samples.

Results

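The genes examined here are 7 members of the interleukin 1 (IL-1) family and the inflammasome: the cytokine genes Il1a, Il1b and Il18, the receptor antagonist gene Il1rn, the sensor genes Nlrp3 and Mefv, and the protease gene Casp1. They were chosen by name, as the rows of the count table whose transcripts belong to these symbols, from 38887 rows in all. Each symbol had 1 row, and all 7 were among the 14363 rows with enough counts to be tested. The RNA-seq libraries came from cultured mouse dendritic cells raised from bone marrow (BMDC), which take up and present antigen to T cells. The groups were untreated cells, cells given lysophosphatidic acid (LPA), a signalling phospholipid, for 2 h, and cells given LPA for 6 h, with 3 libraries in each. The labels give no strain, age, sex, culture protocol, LPA dose, vehicle or time for the untreated cells, and do not say whether replicates came from separate animals. The spread that the p-values rest on is therefore that of these libraries alone and may be technical. The title of the series places the work in the study of LPA from ovarian tumors and type I interferon responses.

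IL-1 alpha and IL-1 beta are agonists of the same receptor, and the protein made from Il1rn binds that receptor without activating it. IL-1 beta and IL-18 are made as inactive precursors that caspase-1, the product of Casp1, cuts into active cytokines. Caspase-1 is itself activated on inflammasomes, complexes built on sensors such as NLRP3 and pyrin (Mefv) through the adaptor ASC (Pycard). In myeloid cells the transcripts of Il1b and Nlrp3 are low at rest and are induced by microbial or inflammatory signals, a step called priming, while cytokine release needs a further signal. RNA-seq measures only the transcripts, so precursor cleavage and release were not measured here.

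The libraries held 29628817 to 84596899 counts. Values below are CPM (counts scaled to a common library size), each with its SD over 3 libraries. Among the 2 h libraries, replicate 2 lay nearest to the 6 h libraries and replicate 3 farthest from them. Each was placed on a scale with 0 at the mean of the other 2 h libraries and 1 at the 6 h mean. Across 656 genes that passed at 2-fold or more between the times, the median position of replicate 2 was 0.298. Replicates 1 and 3 were at -0.0951 and -0.259. Results of the 7 genes at 2 h are also given without replicate 2. Of 13 dendritic cell markers 12 were tested and 1, Cd209a, stayed under 1 CPM in every library. Their summed level was 5857 to 6753 CPM untreated, 6124 to 6733 at 2 h and 5448 to 5923 at 6 h. It came mostly from Cd74, at 3597, 3645 and 3252 CPM. At 2 h Ccr7 rose and Batf3 fell, and at 6 h Ccr7 and Clec9a rose and Itgax, H2-Ab1 and Batf3 fell. All 11 macrophage and monocyte markers were tested as well, with sums of 4018 to 4057, 5015 to 5182 and 5172 to 5431 CPM. The largest part of these sums was Csf1r, at 2251, 2523 and 2629 CPM in the 3 groups. Their rise came mostly from Cd14, at 106, 856 and 1078 CPM. At 6 h 4 of the 11 rose (Mertk, Csf1r, Cd68 and Cd14) and 6 fell (Adgre1, Fcgr1, C1qa, C1qb, C1qc and Mrc1). The part of these markers in the results below was not tested. Of 12 neutrophil markers 8 were tested, with sums of 2047 to 2224, 1959 to 2069.7 and 1795 to 1906 CPM that came mostly from Mmp8. Ly6g, Mpo, Elane, Ngp, Camp and Retnlg stayed under 1 CPM in every library, the first 3 with at most 6 counts. Csf3r was at 10.2, 7.59 and 3.64 CPM in the 3 groups, and S100a8 at 2.40, 3.01 and 2.52 CPM. None of the 8 neutrophil markers was called at 2 h. At 6 h 4 fell (S100a9, Camp, Mmp8 and Csf3r) and 0 rose, where 25.7% of all genes fell and 26.4% rose. No lymphocyte marker reached 1 CPM. In such bulk samples, fewer cells of a type and less RNA per cell cannot be told apart.

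Il1a and Il1b are neighbours on chromosome 2 that were induced to different degrees, and Nlrp3 and Mefv are the sensor genes among the 7, both highest at 2 h as Il1b was, so the 250 bases before their transcription starts are shown. The sequences are from RefSeq (build GRCm38.p6), written 5′ to 3′ along the gene: Il1b at chr2:129371140-129371389 (minus strand), Il1a at chr2:129309973-129310222 (minus strand), Nlrp3 at chr11:59541319-59541568 (plus strand, the upstream of its 2 starts) and Mefv at chr16:3718125-3718374 (minus strand). Capitals mark letters that match any of the motifs searched.
Il1b: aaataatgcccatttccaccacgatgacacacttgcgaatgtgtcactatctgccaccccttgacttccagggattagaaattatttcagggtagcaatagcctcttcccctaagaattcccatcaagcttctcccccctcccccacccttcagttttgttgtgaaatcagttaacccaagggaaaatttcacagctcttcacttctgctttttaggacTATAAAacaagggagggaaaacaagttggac
Il1a: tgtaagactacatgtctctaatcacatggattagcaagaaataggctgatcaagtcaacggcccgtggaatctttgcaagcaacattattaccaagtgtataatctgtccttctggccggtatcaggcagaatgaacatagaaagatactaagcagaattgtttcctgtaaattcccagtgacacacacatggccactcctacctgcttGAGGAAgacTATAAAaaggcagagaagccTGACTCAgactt
Nlrp3: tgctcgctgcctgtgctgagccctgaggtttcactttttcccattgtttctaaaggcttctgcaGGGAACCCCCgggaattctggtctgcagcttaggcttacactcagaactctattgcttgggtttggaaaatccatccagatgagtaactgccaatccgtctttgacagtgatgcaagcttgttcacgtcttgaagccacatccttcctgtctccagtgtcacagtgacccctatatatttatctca
Mefv: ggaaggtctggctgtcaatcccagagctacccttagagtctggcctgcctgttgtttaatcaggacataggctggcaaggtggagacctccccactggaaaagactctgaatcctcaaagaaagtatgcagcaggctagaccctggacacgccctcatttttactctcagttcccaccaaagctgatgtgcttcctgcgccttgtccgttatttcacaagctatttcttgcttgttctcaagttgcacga
The motif search covered the 10 RefSeq windows of the 7 members and the same 250 bases of all 32851 windows in the table. Both strands were read for each motif but the TATA box, which was read on the gene's strand. The TATA letters TATAAA stood 31 to 26 bases before the start of Il1b and 32 to 27 before that of Il1a, in 2 of the 10 windows and in 7.59% of all windows. The AP-1 letters TGANTCA were in the Il1a window, 12 to 6 bases before the start, and in the most upstream of the 3 Il1rn windows, and in 6.75% of all windows. The kappaB consensus matched once in the Nlrp3 window above, where the same letters match on both strands, 186 to 177 bases before the start, and in 7.25% of all windows. The PU.1 letters GAGGAA were in windows of Casp1, Il1a and Nlrp3 and in 23.3% of all, and in Il1a did not overlap the TATA letters. No member window held the CRE core letters TGACG (17.8% of all windows), the C/EBP letters TTGCNNAA (9.56%) or the ISRE consensus (2.98%), which says only that these letters are not in these windows.

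After 2 h of LPA the agonist Il1b rose 9.20-fold and Il1a 1.26-fold, Nlrp3 rose 1.95-fold and Mefv 1.82-fold, and Casp1 fell, so that 4 of the 7 genes were higher and 1 lower. By 6 h Il1b was still raised, Nlrp3 and Il1a were back near their untreated levels, Il18 was higher, and Casp1, Il1rn and Mefv were lower, which makes 2 higher and 3 lower. The calls use the quasi-likelihood test of edgeR, with p adjusted by Benjamini-Hochberg over all tested genes and a threshold of 0.05. The background was high: at 2 h 38.5% of all genes were called, 19.3% higher and 19.2% lower, and at 6 h 52% were called, 26.4% higher and 25.7% lower. Between 6 h and 2 h all 7 members differed, 6 lower and 1 higher at 6 h, where 48.7% of all genes were called, 24.3% higher and 24.4% lower. In 5, 5 and 7 members respectively the libraries of the groups compared did not overlap, as in 48.2%, 63% and 58.9% of all genes. The members' median log2 fold change was 0.36 at 2 h, -0.08 at 6 h and -0.66 for 6 h against 2 h. Over all tested genes these medians were -0.00099, 0.0073 and -0.0064. Both comparisons with untreated cells use the same 3 untreated libraries. These have no stated time or vehicle, so LPA, time in culture and handling cannot be told apart. Without replicate 2 at 2 h, the members called at 2 h and their directions were the same, with log2 fold changes of 0.34 for Il1a, -0.07 for Il1rn and 0.17 for Il18 and those of the other 4 given below. Without it the differences of 6 h from 2 h were -1.89 for Il1b, -0.28 for Il1a, -0.55 for Il1rn, 0.80 for Il18, -1.19 for Nlrp3, -1.51 for Mefv and -0.74 for Casp1. Over all fits that left out 1 library they were -1.89 to -1.39 for Il1b, -0.30 to -0.23 for Il1a and -0.55 to -0.41 for Il1rn. For Il18 they were 0.48 to 0.80, for Nlrp3 -1.19 to -0.86, for Mefv -1.51 to -1.18 and for Casp1 -0.74 to -0.59.

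**Figure D1:**
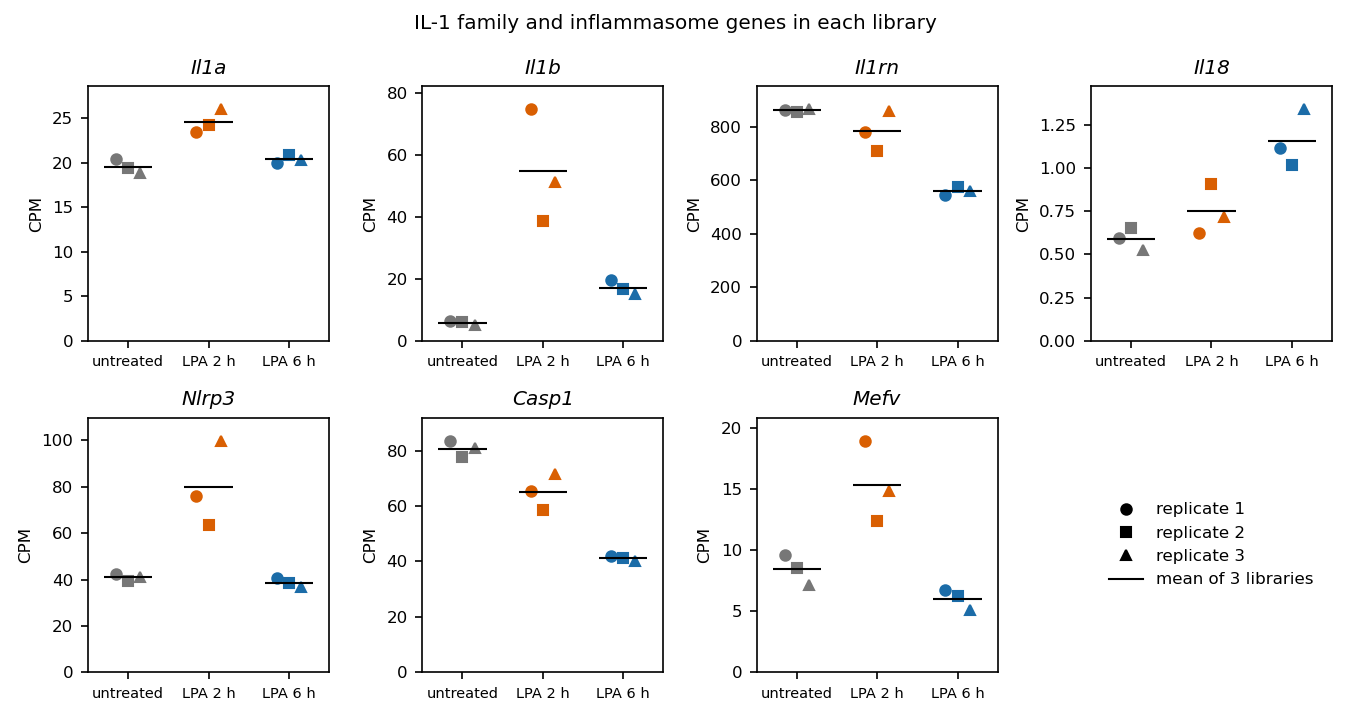
CPM of each of the 7 genes (vertical axes, each from 0) in the 3 untreated, 3 LPA 2 h and 3 LPA 6 h libraries; symbols give the replicate and the line the mean of 3. Il1b, Nlrp3 and Mefv peak at 2 h, Casp1 and Il1rn are lowest at 6 h, and Il18, at most 1.34 CPM, is highest at 6 h.

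Il1b (chromosome 2, 129364570 to 129371139, minus strand, GRCm38), which encodes IL-1 beta, had 6.53, 6.27 and 5.05 CPM in the untreated libraries. At 2 h it had 74.9, 38.7 and 51.3 CPM, and at 6 h 19.6, 16.9 and 15.2 CPM. All 3 groups were separate, and the 2 h libraries spread most, with replicate 1 at nearly 2 times replicate 2. The mean went from 5.95 ± 0.793 CPM untreated to 55.0 ± 18.4 CPM (SD, n = 3 each), with a 2 h log2 fold change of 3.20 ± 0.27 (SE; 9.20-fold, 95% interval 5.89 to 14.4; edgeR adjusted p = 1e-04). Only 2.88% of all genes were called and at least 2-fold higher at that time. At 6 h the mean was 17.2 ± 2.23 CPM, a log2 fold change of 1.52 ± 0.27 against untreated cells (2.87-fold; edgeR adjusted p = 0.00289) and of -1.68 ± 0.25 against 2 h (edgeR adjusted p = 0.00133). Without replicate 2 at 2 h the rise at 2 h was 3.41 on the log2 scale, and without replicate 1 it was 2.91. An antisense gene, Il1bos, overlaps exons of Il1b and could share reads in these non-stranded libraries, but held 61 counts over all libraries against 13312 for Il1b.

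Il1a (chromosome 2, 129299610 to 129309972, minus strand), which encodes IL-1 alpha, the agonist that is active without cutting by caspase-1, started higher than Il1b and moved far less. It had 20.4, 19.4 and 18.8 CPM untreated, 23.4, 24.2 and 26.0 CPM at 2 h, and 19.97, 20.9 and 20.3 CPM at 6 h. The 2 h libraries lay above all others, and the untreated and 6 h libraries overlapped. The log2 fold change was 0.33 ± 0.06 at 2 h (edgeR adjusted p = 6.26e-04) and 0.06 ± 0.06 at 6 h, which did not pass (edgeR adjusted p = 0.378; 95% interval -0.06 to 0.19). Between the times it fell by 0.27 ± 0.06 (edgeR adjusted p = 0.00224). The opposite-strand gene Gm14023 overlaps Il1a, with 126 counts in all against 10763.

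Il1rn (chromosome 2, 24336853 to 24351494, plus strand), the antagonist, was by far the most abundant of the 7 transcripts. Its libraries had 861, 857 and 866 CPM untreated, 780, 709 and 858 CPM at 2 h, and 545, 576 and 560.1 CPM at 6 h. The 2 h libraries reached into the untreated range, while the 6 h libraries lay below all others. The log2 fold change at 2 h was -0.14 ± 0.06 and did not pass (edgeR adjusted p = 0.0891). It passed without 2 h replicate 3 (-0.21, edgeR adjusted p = 0.00642) and with total counts for scaling (edgeR adjusted p = 0.0413), and over all alternatives run the adjusted p was 0.00642 to 0.281. At 6 h Il1rn fell by 0.62 ± 0.06 (edgeR adjusted p = 4.57e-06), from 861 ± 4.47 to 560.4 ± 15.6 CPM. Between 2 h and 6 h it fell by 0.48 ± 0.06 (edgeR adjusted p = 8.73e-05).

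The balance of agonist and antagonist transcripts within each library does not depend on scaling between libraries. There were 132, 136 and 171 Il1rn counts for each Il1b count in untreated cells, 10.4, 18.4 and 16.7 after 2 h, and 27.8, 34.1 and 36.8 at 6 h. The 3 groups did not overlap. As a log2 ratio of Il1b to Il1rn, the groups stood at -7.18 ± 0.21, -3.88 ± 0.44 and -5.03 ± 0.21 (SD, n = 3). The ratio was higher by 3.30 at 2 h and by 2.15 at 6 h than in untreated cells, and at 6 h it differed from 2 h by -1.15. An exact two-sided permutation test gave p = 0.1 for each of these 3 comparisons, also after Benjamini-Hochberg adjustment over the 3, the smallest value that 3 against 3 libraries allow. On the scale of CPM per kilobase of the longest transcript, Il1b made up 1.25 ± 0.168% of the summed Il1a, Il1b and Il1rn level in untreated cells, 11.2 ± 3.18% at 2 h and 5.25 ± 0.742% at 6 h. The share of Il1a on that scale was 2.81 ± 0.116%, 3.48 ± 0.339% and 4.26 ± 0.0139%, and the antagonist kept 85.3 ± 2.90% at its lowest, at 2 h.

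**Figure D2:**
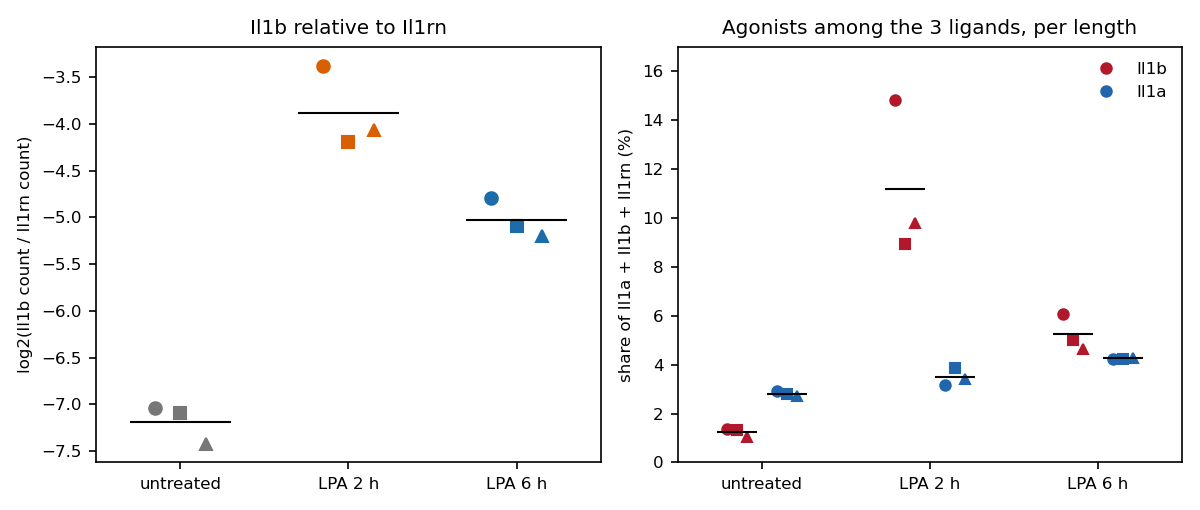
Left, log2 ratio of Il1b to Il1rn counts in each library of the 3 groups; right, share (%) of Il1b and Il1a in the summed level of Il1a, Il1b and Il1rn in CPM per kilobase of the longest transcript, axis from 0. Symbols give the replicate and lines the mean of 3: the ratio is near -7.18 untreated, -3.88 at 2 h and -5.03 at 6 h, and Il1b passes Il1a in share in all 6 LPA libraries.

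Il18 (chromosome 9, 50554827 to 50581840, plus strand) encodes IL-18, the other IL-1 family cytokine that caspase-1 activates. It was barely expressed, with 25 to 86 counts per library. It had 0.593, 0.650 and 0.526 CPM untreated, 0.622, 0.910 and 0.718 CPM at 2 h, and 1.12, 1.02 and 1.34 CPM at 6 h. The 6 h libraries lay above all others, and the untreated and 2 h libraries overlapped. At 6 h the log2 fold change was 0.97 ± 0.21 (edgeR adjusted p = 0.00186), and at 2 h it was 0.36 ± 0.21 and did not pass (edgeR adjusted p = 0.21; 95% interval -0.10 to 0.81). The difference between the times, 0.61 ± 0.20 (edgeR adjusted p = 0.0221), was lost without 2 h replicate 1 (0.0916), without 2 h replicate 3 (0.0604), without 6 h replicate 3 (0.119) and with DESeq2 (0.0623), with adjusted p from 0.0102 to 0.119 over all alternatives run.

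Nlrp3 (chromosome 11, 59541568 to 59566956, plus strand) encodes the sensor of the best known inflammasome. Its libraries had 42.2, 39.2 and 41.3 CPM untreated, 76.2, 63.6 and 99.8 CPM at 2 h, and 40.8, 38.4 and 36.8 CPM at 6 h. All 2 h libraries were above all others, and those of the other groups overlapped. The mean of 40.9 ± 1.50 CPM rose to 79.9 ± 18.4 CPM at 2 h, and the log2 fold change was 0.96 ± 0.14 (edgeR adjusted p = 8.97e-04). It was 1.11 without 2 h replicate 2, and 0.77 to 1.11 over all fits that left out 1 library. At 6 h it was -0.08 ± 0.14 from untreated and did not pass (edgeR adjusted p = 0.659; 95% interval -0.42 to 0.25), and -1.05 ± 0.14 from 2 h (edgeR adjusted p = 5.4e-04).

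Mefv (chromosome 16, 3707218 to 3718097, minus strand) encodes pyrin, an inflammasome sensor whose human gene is mutated in familial Mediterranean fever. It had 9.60, 8.53 and 7.19 CPM untreated, 19.0, 12.4 and 14.8 CPM at 2 h, and 6.77, 6.30 and 5.08 CPM at 6 h. The 3 groups did not overlap. It rose by a log2 fold change of 0.86 ± 0.17 at 2 h (edgeR adjusted p = 0.00285) and stood at -1.36 ± 0.17 at 6 h against 2 h (edgeR adjusted p = 2.34e-04). The 2 h rise of Mefv was 1.01 without 2 h replicate 2, and 0.68 to 1.01 over all fits that left out 1 library. Its fall below the untreated level at 6 h, -0.50 ± 0.18, passed narrowly (edgeR adjusted p = 0.0412). That call was lost without untreated replicate 1 (0.128) or 2 (0.0925), without 2 h replicate 3 (0.0662), without 6 h replicate 2 (0.0745) or 3 (0.146), and with no filter on low counts (0.109). Over all alternatives run the adjusted p was 0.00494, with the replicate block, to 0.146.

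Casp1 (chromosome 9, 5298517 to 5307265, plus strand), the protease that both sensors activate through Pycard, moved opposite to Nlrp3 at 2 h. It had 83.6, 77.6 and 80.8 CPM untreated, 65.4, 58.6 and 71.5 CPM at 2 h, and 42.0, 41.3 and 40.2 CPM at 6 h. The 3 groups were separate and fell in the order of time. Its mean fell from 80.7 ± 2.99 to 65.2 ± 6.42 CPM at 2 h and 41.2 ± 0.938 CPM at 6 h. The log2 fold changes were -0.31 ± 0.06 at 2 h (edgeR adjusted p = 0.00213; -0.24 without 2 h replicate 2) and -0.97 ± 0.06 at 6 h (edgeR adjusted p = 3.08e-07). Between the times Casp1 fell by 0.66 ± 0.06 (edgeR adjusted p = 2.22e-05).

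**Figure D3:**
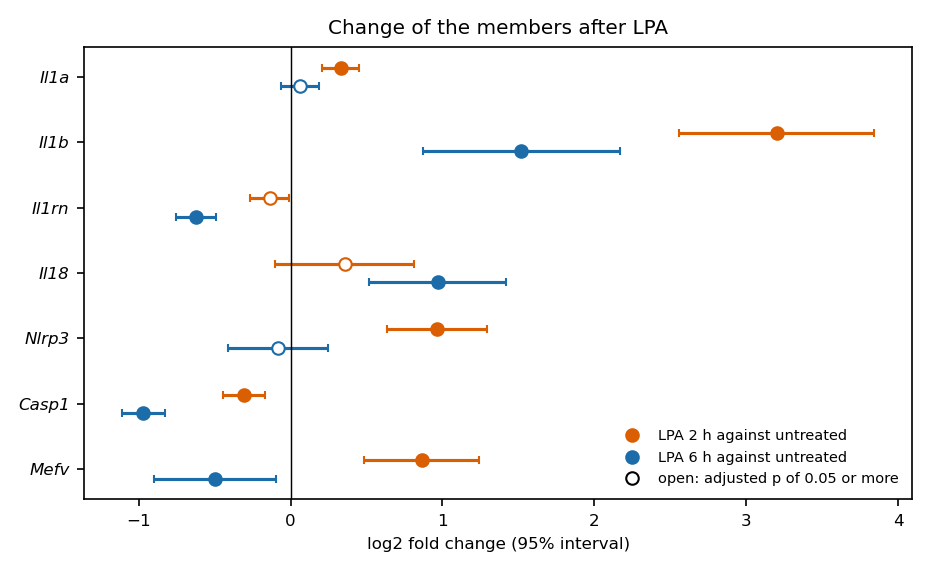
Log2 fold change (horizontal axis) of each of the 7 genes at 2 h and at 6 h of LPA against untreated cells, with 95% intervals from edgeR; filled points had an adjusted p under 0.05. Il1b is at 3.20 and 1.52, Casp1 at -0.31 and -0.97, and Mefv lies on opposite sides of 0 at the 2 times.

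The order of the members' levels was compared as CPM per kilobase of the longest annotated transcript. In untreated cells Il1rn stood at 337 ± 1.75 and Casp1 at 53.9 ± 2.00. Next were Nlrp3 at 10.2 ± 0.373 and Il1a at 9.89 ± 0.415, whose libraries overlapped, and then Il1b at 4.39 ± 0.585, Mefv at 2.73 ± 0.390 and Il18 at 0.840 ± 0.0888. At 2 h Il1b had moved up to 40.5 ± 13.6, from place 5 to place 3, and overlapped Casp1 at 43.5 ± 4.29, above Nlrp3 at 19.9 ± 4.57 and Il1a at 12.4 ± 0.662. At 6 h Il1b was in place 3 at 12.7 ± 1.64, Il1a (10.3 ± 0.225) and Nlrp3 (9.61 ± 0.496) overlapped again, and so did Mefv (1.95 ± 0.282) and Il18 (1.65 ± 0.235). Dividing by the mean instead of the longest transcript length put Il1b, at 68.0, above Casp1 at 2 h and Nlrp3 above Il1a at 6 h.

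Likeness of pattern was taken as the root mean square difference of log2 CPM over the 9 libraries, each gene centred on its own untreated mean. The 2 genes nearest to Il1b were Nr4a1 (0.141), an immediate early nuclear receptor gene, at 1.21, 12.1 and 3.54 CPM in the 3 groups, and Zcchc14 (0.244). Nearest to Nlrp3 were Blm (0.0877), a DNA helicase gene, and Cirbp (0.103), which encodes a cold-inducible RNA-binding protein. The genes nearest to Mefv were Tlr2 (0.151), a receptor gene for bacterial lipoproteins, at 149, 272 and 121 CPM, and Sgms2 (0.173). For Casp1 they were the purine metabolism genes Pnp (0.0551) and Atic (0.0552), for Il1rn Kif2a (0.0281) and Anp32e (0.0335), for Il1a Ramac (0.0460) and Taf5l (0.0484), and for Il18 Smtn (0.102) and Apbb2 (0.103).

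The other genes of the pathway were read from 6 lists of 82 symbols, of which 77 had a row and 66 were tested. Those without a row were Il36a, Il36b, Il36g, Il36rn and Il37. The gene of IL-36 gamma has its row under the symbol Il1f9, so a symbol without a row need not be a missing gene. At 2 h 15 of the 66 rose and 20 fell, and at 6 h 14 rose and 29 fell, against 19.3% and 19.2% of all genes at 2 h and 26.4% and 25.7% at 6 h. Between the times 17 were higher at 6 h and 27 lower, against 24.3% and 24.4% of all genes. The median log2 fold change was -0.03 at 2 h and -0.09 at 6 h.

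Among the receptors, the product of the decoy receptor gene Il1r2 binds IL-1 without signalling. At both times Il1r2 had the largest log2 fold change, in either direction, among the 7 members and the tested genes of the 6 lists. This order was not tested. At 2 h its 95% interval was 3.13 to 3.96, and that of Il1b was 2.56 to 3.84. At 6 h its interval was 2.43 to 3.27, and that of Il33, which fell, was -3.16 to -1.70. Il1r2 had 1.89, 1.80 and 2.12 CPM untreated, 22.8, 18.8 and 26.3 CPM at 2 h, and 12.1, 12.3 and 17.1 CPM at 6 h. All LPA libraries were far above the untreated ones, with a log2 fold change of 3.55 ± 0.18 at 2 h (edgeR adjusted p = 5.93e-07) and 2.85 ± 0.19 at 6 h (edgeR adjusted p = 1.69e-06). The signalling receptor gene Il1r1 went from 4.29 ± 0.272 CPM to 8.11 ± 0.564 CPM at 2 h and 6.26 ± 0.248 CPM at 6 h, log2 fold changes of 0.91 ± 0.09 and 0.54 ± 0.09 that both passed. Il1rap, which encodes the shared co-receptor, rose by 0.22 ± 0.08 at 2 h and fell by 0.40 ± 0.08 at 6 h. Its rise at 2 h (edgeR adjusted p = 0.0436) was lost in 11 of 19 alternatives, among them DESeq2 (0.0518) and limma-voom (0.0599), with an adjusted p of up to 0.168. Of 9 tested receptors and decoys 3 rose and 0 fell at 2 h (4 and 0 without 2 h replicate 2), where 0 were lower at an unadjusted p under 0.05 and DESeq2 and limma-voom each called 2 higher and 0 lower. At 6 h 3 rose and 4 fell. Of all genes 19.3% rose and 19.2% fell at 2 h, and 26.4% and 25.7% at 6 h. Il18bp, the secreted inhibitor of IL-18, had log2 fold changes of 0.12 ± 0.10 and -0.11 ± 0.10 that did not pass, and its exons overlap the opposite-strand gene Numa1, which has more counts.

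Of the other IL-1 family ligands only Il33 and Il1f9 were tested, and neither passed at 2 h, with 0 at an unadjusted p under 0.05 and 0 called by DESeq2 or limma-voom. Il33, which encodes an alarmin cytokine, had 2.33, 2.65 and 1.62 CPM untreated and 0.493, 0.272 and 0.483 CPM at 6 h, a fall of 2.43 ± 0.33 on the log2 scale (edgeR adjusted p = 1.09e-04). Il1f9, the gene of IL-36 gamma, had 83.2 ± 2.85 CPM untreated, 83.8 ± 9.79 at 2 h and 34.4 ± 1.55 at 6 h, and fell by 1.27 ± 0.08 at 6 h (edgeR adjusted p = 2.02e-07). The gene of its receptor, Il1rl2, fell by 0.70 ± 0.08 at 6 h. The 4 other ligand genes with a row, Il1f5, Il1f6, Il1f8 and Il1f10, had at most 9 counts in any library.

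The inflammasome adaptor gene Pycard fell like Casp1 at both times. It had 91.1, 86.9 and 83.4 CPM untreated, 63.0, 59.5 and 65.0 CPM at 2 h, and 45.7, 45.5 and 38.8 CPM at 6 h. The groups were separate, with log2 fold changes of -0.48 ± 0.06 at 2 h (edgeR adjusted p = 9.89e-05) and -1.01 ± 0.07 at 6 h (edgeR adjusted p = 2.57e-07). Of 19 tested genes of other sensors and adaptors 11 fell and 1 rose at 2 h, and 10 fell and 2 rose at 6 h, where 19.2% and 25.7% of all genes fell at these times and 19.3% and 26.4% rose. The median log2 fold change of the list was -0.25 and -0.19. The gene that rose at 2 h was Naip2, a subunit gene of sensors for bacterial proteins, with 167 ± 13.0, 227 ± 13.1 and 190 ± 6.83 CPM in the 3 groups; it was named after its values were seen, and it has close copies. Nlrp1a (-0.67 ± 0.06) and Nlrp1b (-0.66 ± 0.10) fell at 2 h and were at -0.70 ± 0.06 and -1.43 ± 0.10 at 6 h; they are close copies, so the division of reads between them is uncertain. P2rx7, whose product is the ATP-gated channel that triggers NLRP3, fell from 152 ± 2.54 to 99.4 ± 8.78 CPM at 2 h and was 141 ± 3.75 CPM at 6 h. Its log2 fold change was -0.61 ± 0.06 at 2 h and -0.10 ± 0.06 at 6 h, where it did not pass although all 6 h libraries lay below the untreated ones. At 6 h it passed without 2 h replicate 2 (edgeR adjusted p = 0.0368) and with only the 6 libraries compared (0.0214).

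Among 9 tested genes of proteases and pore formation, 1 rose and 2 fell at 2 h, and 3 rose and 3 fell at 6 h. Of all genes 19.3% rose and 19.2% fell at 2 h, and 26.4% and 25.7% at 6 h. Casp4, the gene next to Casp1 on chromosome 9 (5308828 to 5336783) and the mouse sensor of cytosolic lipopolysaccharide, had 14.04 ± 0.310 CPM untreated, 14.7 ± 1.68 at 2 h and 5.10 ± 0.729 at 6 h. Its fall at 6 h was 1.48 ± 0.11 on the log2 scale (edgeR adjusted p = 4.97e-07), and at 2 h it did not pass (0.06 ± 0.10). Gsdmd, the pore-forming substrate of these caspases, fell by 0.16 ± 0.05 at 2 h and by 0.38 ± 0.05 at 6 h. The call at 2 h (edgeR adjusted p = 0.0257) was lost without untreated replicate 1 (0.075) or 2 (0.0955) and without 2 h replicate 3 (0.0658). Casp8 was at -0.05 ± 0.05 at 2 h, which did not pass, and rose by 0.13 ± 0.05 at 6 h (edgeR adjusted p = 0.0477), a call lost in 9 of 19 alternatives with an adjusted p of up to 0.176. Ninj1, needed for membrane rupture, rose by 0.27 ± 0.05 at 2 h, and the calpain gene Capn1 fell by 0.18 ± 0.04.

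Of 17 genes of signalling from the IL-1 receptor, 6 were higher and 4 lower at 2 h, and 6 and 6 at 6 h. Of all genes 19.3% were higher and 19.2% lower at 2 h, and 26.4% and 25.7% at 6 h. Tollip, an inhibitor of IL-1 receptor signalling, rose by 0.40 ± 0.05 and 0.52 ± 0.05, and the kinase gene Irak2 by 0.30 ± 0.05 and 0.76 ± 0.05. The adaptor gene Myd88 fell by 0.36 ± 0.05 and 0.22 ± 0.05, and its exons overlap the opposite-strand gene Acaa1a. Among 10 transcription factors that act on Il1b, 4 rose and 3 fell at 2 h, and 0 rose and 4 fell at 6 h, against the same shares of all genes. At 6 h 2 were higher at an unadjusted p under 0.05, and DESeq2 and limma-voom each called 1 higher and 4 lower. Without untreated replicate 2 or 6 h replicate 3 the count at 6 h was 2 or 1. Rel, an NF-kappaB subunit gene, rose from 41.8 ± 1.26 to 62.3 ± 6.64 CPM at 2 h (0.57 ± 0.07) and was 45.5 ± 0.492 CPM at 6 h, which did not pass (edgeR adjusted p = 0.137) but did without 2 h replicate 3 (0.0236), with total counts for scaling (0.0458) and with only the 6 libraries compared (0.0244). The repressor gene Bcl6 fell by 0.49 ± 0.05 at 2 h and by 0.17 ± 0.05 at 6 h (edgeR adjusted p = 0.0179). The call at 6 h was lost with total counts for scaling (0.0724), without untreated replicate 2 (0.0614) and without 6 h replicate 2 (0.0643) or 3 (0.0941). Spi1, which encodes PU.1, fell by 0.21 ± 0.05 at 2 h and 0.27 ± 0.05 at 6 h. Nfkbiz was at 0.02 ± 0.09 at 2 h, which did not pass, and fell by 0.29 ± 0.09 at 6 h, a call lost without 6 h replicate 3 (-0.23, edgeR adjusted p = 0.0827).

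**Figure D4:**
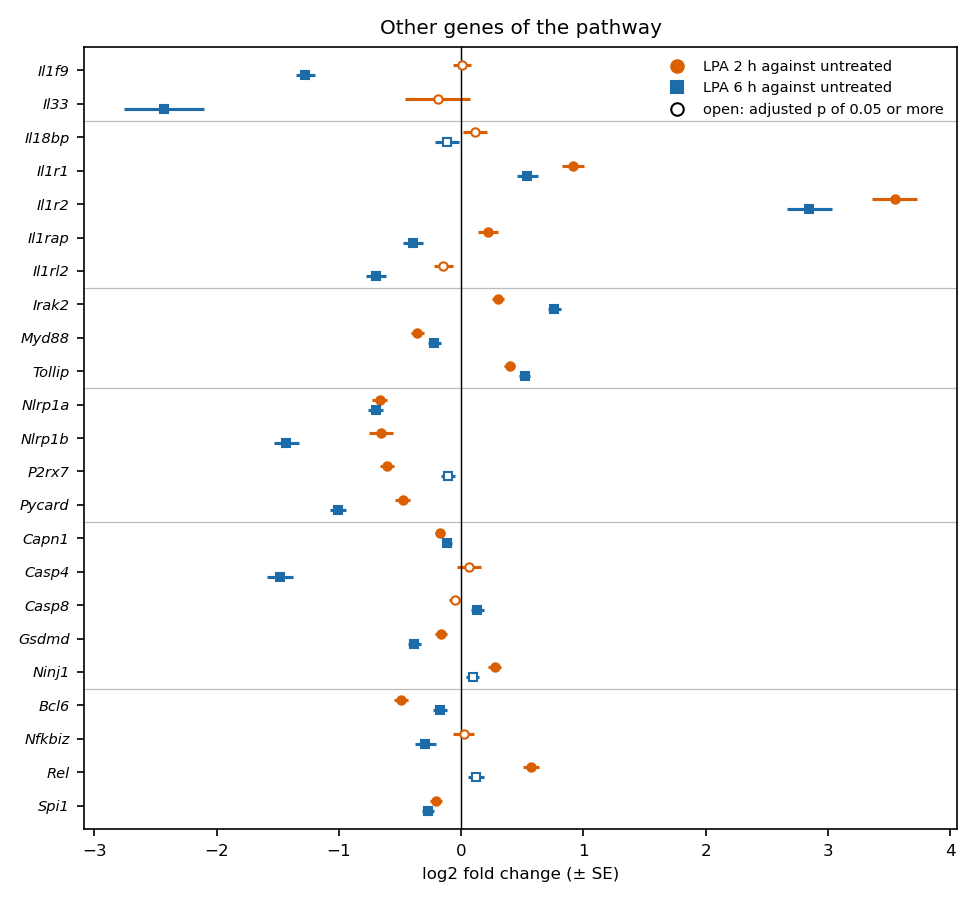
Log2 fold change ± SE (horizontal axis) at 2 h and 6 h of LPA against untreated cells for the 23 other named genes, with lines between the lists (ligands, receptors and decoys, receptor signalling, inflammasome sensors and adaptors, proteases and pore formation, transcription factors); open symbols had an adjusted p of 0.05 or more. Il1r2 stands at 3.55 and 2.85, and Pycard, Nlrp1b and Casp4 are at -1.01, -1.43 and -1.48 at 6 h.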

How the data were processed

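The values the authors deposited are estimated counts for 9 libraries in a single table, already whole numbers and unscaled. The submitters' processing notes name RSEM 1.2.3, DESeq2 and the build mm10; per the labels' protocols, the mRNA libraries were TruSeq and non-stranded. Aligner and annotation: not given in the sources used here. Rows, named by Ensembl transcripts, were matched to GENCODE M21 (GRCm38, the assembly mm10 names): 1 gene was found for 37776 rows, with 98.5% of the counts. RSEM divides reads among similar transcripts.

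Genes passing filterByExpr (minimum count 10, minimum total 15) were scaled with TMM and fitted over all 9 libraries with edgeR 4.0.16 (glmQLFit, robust, and glmQLFTest; R 4.3.3), with a mean per group. SE is the log2 fold change over the square root of F, and 95% intervals use the test's degrees of freedom. Pattern likeness used log2(CPM + 0.1). The ratio of Il1b to Il1rn added 0.5 to each count. Between replicates, chi-square per degree of freedom was 7.35 to 33.7, so none was counted as a repeat sequencing of the same library. These values do not show whether replicates came from separate cultures or animals. In the 6 h comparison with untreated cells, libraries with the same number had deviations correlated at 0.144 to 0.178. Correlations between libraries with different numbers were not computed, so pairing was not tested. The labels do not say that the numbers pair libraries. The fit behind the printed p-values is therefore unpaired in all comparisons, with the replicate block as an alternative. On simulated counts, in which far fewer genes changed than were called here, the fit recovered most changed genes at 2 h. False calls there made up somewhat more than the nominal share of calls. That share depends on how many genes change, so it does not give the share in these data. Alternatives were other scalings, DESeq2 1.42.0, limma-voom (limma 3.58.1), other filters, the replicate block, only the 6 libraries compared, added rows per gene and leaving out each library.

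The members, lists and motifs were chosen with earlier results of these data known. Named beside the members were 8 fixed genes (Pycard, Il1r1, Il1r2, Il1rap, Il18bp, Gsdmd, Casp4, Casp8), the 2 genes of each list with the smallest p at 2 h and at 6 h against untreated, and the 2 genes nearest in pattern to each member. Marker lists were dendritic cell, macrophage and monocyte, neutrophil, mast cell and basophil, and lymphocyte; of 8 mast cell and basophil markers 2 were tested, with sums of 19.2 to 24.4 CPM over all libraries.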

Additional observations from a re-analysis of the deposited data

Results flagged for a closer look

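All 7 members differed between LPA 6 h and LPA 2 h by edgeR's contrast of these groups, at an adjusted p under 0.05. Of all tested genes 48.7% also passed. The same untreated libraries, of unstated time, serve both effects and cancel out of this contrast. A change in the effect of LPA and time in culture therefore cannot be told apart. The 6 h effect minus the 2 h effect on the log2 scale was -1.68 for Il1b, -1.36 for Mefv, -1.05 for Nlrp3, -0.66 for Casp1, -0.48 for Il1rn, -0.27 for Il1a and 0.61 for Il18. Groups of 3 libraries are too small for a test of single outlying libraries.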

How the results depend on the processing

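Over the alternatives, 387 of 399 values of the members kept their direction and their side of the threshold, 10 lost the call and 2 gained it, and none changed sign; the losses concern Mefv at 6 h and Il18 between the times, and the gains Il1rn at 2 h. The number of members called stayed within 5 to 6 at 2 h, 4 to 5 at 6 h and 6 to 7 between the times. Leaving out each library in turn gave 4352 to 5580 called genes at 2 h (5525 with all), 6226 to 7896 at 6 h (7472 with all) and 5767 to 7425 between the times (6991 with all). The log2 ratio of Il1b to Il1rn moved over 3.05 to 3.46, 2.04 to 2.24 and -1.31 to -0.90. With the replicate block, 6135, 8036 and 7588 genes were called and no member changed its call; of the other named genes only Il18bp did, between the times (-0.23, adjusted p = 0.00144, against 0.0754 without the block). In 2 h against untreated and 6 h against 2 h, same-numbered libraries correlated at 0.0904 to 0.184 and 0.0347 to 0.128. The main fit did not pair libraries in any comparison. Of 1311 values of other named genes 1234 stayed the same in direction and side of the threshold, 56 lost the call, 11 gained it, and 10, all of genes not called, changed sign. Without 2 h replicate 2 no called gene among the other named genes lost its call at 2 h. With total counts for scaling the values that changed sign were those of Il1f9 at 2 h (-0.0065) and Nlrp1a between the times (0.0193). Leaving out single libraries gave, at 2 h, -0.0059 to 0.157 for Casp4, -0.0788 to 0.0037 for Casp8, -0.0727 to 0.0965 for Il1f9 and -0.0201 to 0.0469 for Nfkbiz, and between the times -0.0857 to 0.0014 for Nlrp1a; the cause was not tested. List counts moved by over 1.5 times in 6 cases: transcription factors at 6 h, from 4 genes to 2 without untreated replicate 2 and to 1 without 6 h replicate 3; receptor signalling between the times, from 10 to 6 without 2 h replicate 3 or 6 h replicate 3; and transcription factors between the times, from 8 to 5 without 2 h replicate 1 or 6 h replicate 3. Depth limits Il18 most, with 25 to 86 counts per library.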
